A study of Homo sapiens with 2 samples.

Results

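The sphingolipid and ceramide metabolism genes are 37 named genes of ceramide synthesis, its regulation, its conversion to other lipids, its release by breakdown, and the handling of sphingosine and sphingosine 1-phosphate. They were chosen by gene symbol among the 16424 rows of the deposited values, where 34 of the 37 had a row. SPTLC3, SPTSSB and DEGS2 had none and were not analysed here. The cells were PLC/PRF/5, a hepatoma line of human origin that stands for poorly differentiated hepatocellular carcinoma in the study, and expression was read by cap analysis of gene expression (CAGE). In CAGE a short tag is sequenced from the capped 5′ end of each RNA, so that a level counts transcript starts and needs no division by transcript length. The non-treated cells were kept in medium with 0 µg/ml M2BPGi and the M2BPGi-treated cells in medium with 3 µg/ml, and both were collected after 6 h. M2BPGi is the Mac-2-binding protein glycan isomer, the form of galectin-3-binding protein whose sugar chains bind the lectin of Wisteria floribunda. Each condition had 1 library, from 1 cell line, so that no difference has a replicate check and no test of the conditions was possible. Levels are in CPM, the tag count scaled to a common library size, and the steps between the deposited CPM gave totals of about 24040210 tags without and 24862941 tags with M2BPGi.

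Ceramide is the hub of sphingolipid metabolism. It is built in the endoplasmic reticulum from serine and a fatty acyl-CoA, or set free from sphingomyelin and glycosphingolipids, and it is converted to those lipids in the Golgi or cleaved to sphingosine, which kinases turn into the signalling lipid sphingosine 1-phosphate. In the liver, ceramides with very long acyl chains are abundant, and the balance of ceramide and sphingosine 1-phosphate is known for its bearing on cell survival and insulin signalling.

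The label of the cell line was compared with marker genes. All 10 listed hepatocyte and hepatoma markers had tags, with a summed level of 2457 CPM without and 1769 CPM with M2BPGi. FGB, a fibrinogen chain, was the most abundant at 950.0 and 623 CPM, and AFP, the fetal albumin-like protein, had 695 and 566 CPM. ALB, among the main transcripts of mature hepatocytes, had only 8.82 and 7.04 CPM. Of 8 stellate cell and fibroblast markers 2 were listed, COL3A1 at 4.53 and 3.42 CPM and COL1A1 at 0.67 and 0.76 CPM, with a sum of 5.20 and 4.18 CPM. Of 7 Kupffer cell markers only CSF1R was listed, and of 5 lymphocyte markers only PTPRC, each at 0 CPM in both libraries, and 0 of 6 endothelial markers were listed. Of 4 cholangiocyte markers 3 were listed, which summed to 177 and 167 CPM with KRT19 at 164 and 156 CPM. Of the 10 hepatocyte and hepatoma markers 8 were lower in M2BPGi-treated cells, where 57.0% of all genes tested were lower, among them SERPINA1, a protease inhibitor, at 671 and 455 CPM. The other 2 were HNF4A, a hepatocyte transcription factor, at 39.1 and 43.8 CPM, and APOA1, an apolipoprotein, at 4.37 and 4.63 CPM. The median log2 ratio of the 10 markers was -0.35, close to the -0.32 of the sphingolipid genes given below, so lower levels were not particular to the sphingolipid genes, and the part of the markers in the sphingolipid results was not tested. In RNA from a whole culture, fewer cells of a type and less RNA per cell cannot be told apart.

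Most sphingolipid genes had a lower level in M2BPGi-treated cells. The log2 ratio of treated over non-treated cells was taken after adding 1 CPM to each value, which makes differences of weakly expressed genes look smaller, and 13724 genes with a mean of at least 1 CPM were tested. Of the 34 listed sphingolipid genes 33 passed this filter and 30 had a mean of at least 10 CPM. The remaining one was SMPD3, the neutral sphingomyelinase 2 gene, which was at 0 CPM in both libraries, where 0 tags allow up to 0.125 and 0.121 CPM. The median log2 ratio of the 33 genes was -0.32, with quartiles of -0.45 and -0.16, against -0.05 over all genes tested, with quartiles of -0.26 and 0.14. Lower levels were seen for 27 of the 33 genes, where 57.0% of all genes tested were lower, and higher levels for 6, where 42.9% were higher. On this scale, 16 of the 33 stood at 80% or less of their non-treated value, against 18.4% of all genes tested, and 1, NSMAF, stood at 125% or more, against 9.04%. At least 1.5-fold lower were 2, SPTLC1 and DEGS1, against 4.04%, and at least 1.5-fold higher was 1, again NSMAF, against 1.60%. The shift was therefore broad and small, since most of the lower genes did not reach the 1.5-fold mark, and 0 were at least 2-fold lower, where 0.430% of all genes were. At least 2-fold higher was 1, against 0.240%.

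The scale of the libraries moved both the background and the count of sphingolipid genes. With the libraries rescaled to a median log2 ratio of 0 over all genes, 14.0% of all genes stood at 80% or less and 12.5% at 125% or more, in place of 18.4% and 9.04%, while 12 sphingolipid genes stood at 80% or less and 1 at 125% or more. At the 1.5-fold mark the rescaled shares were 3.00% lower and 2.17% higher, and of the 33 sphingolipid genes 1, SPTLC1, was lower (3.03%) and 1, NSMAF, higher, since DEGS1 came to a log2 ratio of -0.57, short of that mark. Longer transcripts also had lower log2 ratios from group 2 on, with a median of 0.07 in group 2 and -0.14 in group 10 of 10 equal groups ordered by transcript length. The sphingolipid genes had a median length of 3312 nt, against 2965 nt for all genes tested. With each log2 ratio set against the median of its length group, their median was -0.23, and 10 of the 33 stood at 80% or less, against 13.5% of all genes, with 11.0% of all genes at 125% or more. Their tags were also more numerous than those of a usual gene, with a median of 44.3 CPM against 20.9 CPM. Among the 30 with a mean of at least 10 CPM the median was -0.33, against -0.03 for all genes at that level, 26 were lower against 54.0%, 4 were higher against 45.9%, 16 stood at 80% or less against 15.6%, and 2 were at least 1.5-fold lower against 2.36%.

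**Figure D1:**
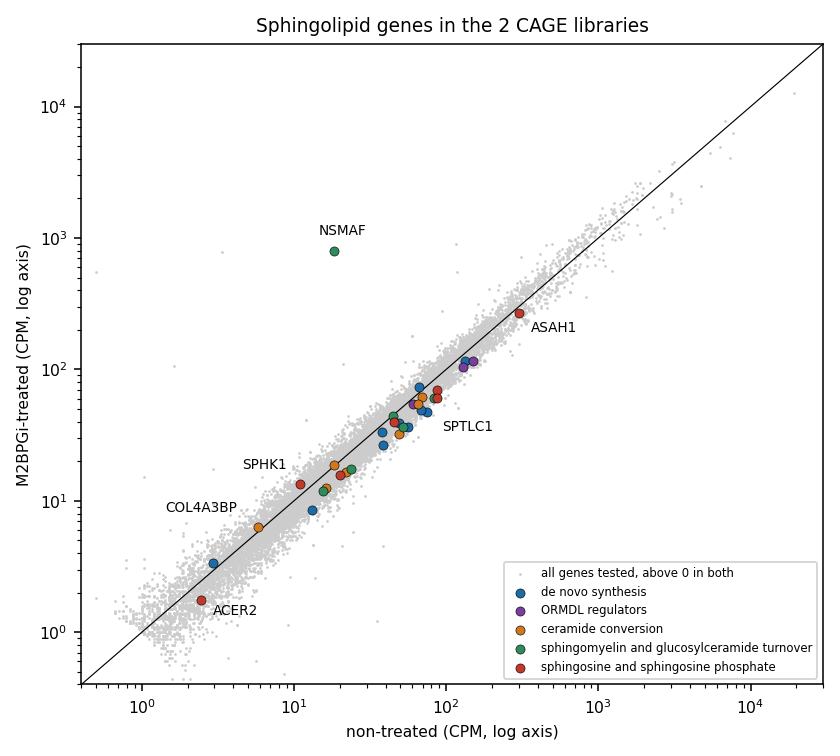
Level of each gene in non-treated cells (horizontal, CPM, log axis) and M2BPGi-treated cells (vertical, CPM, log axis), 1 library each; grey points are the genes tested with tags in both libraries, coloured points are the 33 sphingolipid genes by step, and the line marks equal levels. Most coloured points lie just below the line, SPHK1 lies above it at 11.0 and 13.4 CPM, and NSMAF stands far above it at 18.2 and 796 CPM.

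**Figure D2:**
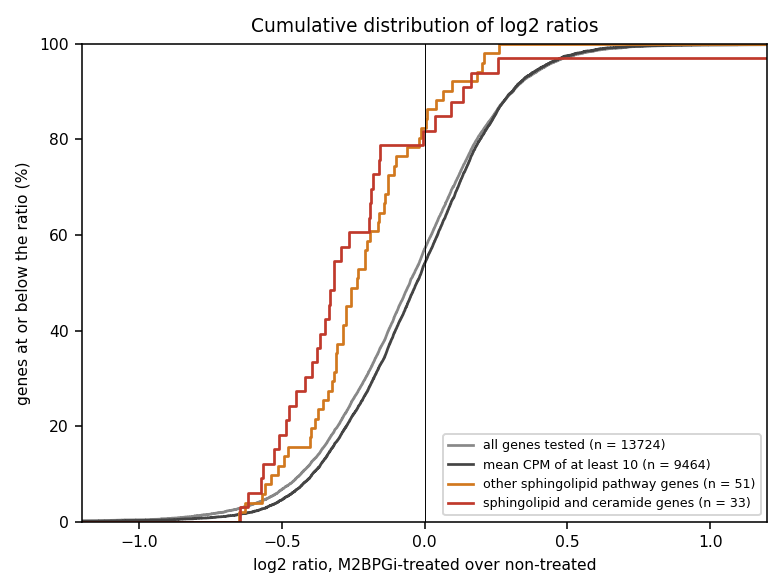
Share of genes (vertical, percent) at or below each log2 ratio of treated over non-treated cells (horizontal) for all genes tested, genes with a mean of at least 10 CPM, the 51 other sphingolipid pathway genes tested, and the 33 sphingolipid and ceramide genes. The curve of the sphingolipid genes runs to the left of the curve of all genes, with medians of -0.32 and -0.05; NSMAF is off the axis, so this curve ends below the top.

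Counting error was small for most of these genes. The 95% Clopper-Pearson interval of the tag ratio, which covers counting error only and not the spread between cultures, lay below 0 on the log2 scale for 25 of the 33 genes, where it did so for 31.5% of all genes tested. It lay above 0 for 3, SPTSSA, NSMAF and SPHK1, where it did so for 22.8%. The tags of SPTSSA and NSMAF may be counted on another row as well, as given below. For the other 5, CERS1, CERK, COL4A3BP, SMPD4 and ACER2, it held 0. Intervals are given below in parentheses after the log2 ratio they belong to, and are those of the tag ratio without the added 1 CPM.

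De novo synthesis begins with serine palmitoyltransferase, whose catalytic core is a pair of the SPTLC1 and SPTLC2 proteins. SPTLC1 was at 74.7 CPM without and 47.4 CPM with M2BPGi, a log2 ratio of -0.65 (-0.76 to -0.55). Only 2.85% of all genes tested had a lower ratio. SPTLC1 lies on the minus strand at chr9:92000087-92115384 of GRCh38, and 8 near-identical copies of its first 500 nt are annotated elsewhere, among them SPTLC1P1 with 99.2% identity over 260 nt. How tags that fit several places were assigned is not given in the sources used here, so the value of SPTLC1 is uncertain to that extent. SPTLC2, for which no such copy was found, was at 37.9 and 33.2 CPM, a log2 ratio of -0.19 (-0.33 to -0.05) that came to -0.05 with the ratio set against the median of its length group. The ratio of SPTLC1 to SPTLC2 tags was 1.97 (1.82 to 2.14) in non-treated and 1.43 (1.30 to 1.56) in M2BPGi-treated cells, a comparison of single libraries that carries the uncertainty of SPTLC1. SPTSSA, a small activating subunit, was at 65.9 and 73.9 CPM, a log2 ratio of 0.16 (0.07 to 0.26). The row of EGLN3, a prolyl hydroxylase gene that overlaps SPTSSA on the same strand, held nearly the same 67.2 and 74.5 CPM, so that the tags of these genes cannot be told apart in the deposited values.

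KDSR, which reduces the first product of the pathway, was at 49.3 and 38.9 CPM, a log2 ratio of -0.33 (-0.47 to -0.22). The ceramide synthases then attach a fatty acyl chain, each with its own preference for chain length. CERS2, which prefers very long chains, was the most abundant at 133 and 116 CPM, a log2 ratio of -0.19 (-0.27 to -0.12). CERS6, which prefers the palmitoyl chain, was at 68.5 and 49.0 CPM, a log2 ratio of -0.48 (-0.59 to -0.38), or -0.34 against its length group. CERS5, with a similar preference, was at 38.5 and 26.4 CPM, a log2 ratio of -0.53 (-0.69 to -0.40). Both synthases of shorter chains thus lay further down than CERS2. CERS4, which accepts long chains, was at 13.1 and 8.49 CPM, a log2 ratio of -0.57 (-0.88 to -0.37). CERS1, best known from brain and muscle, was near the filter at 2.95 and 3.34 CPM, and GDF1, a growth factor gene that shares its transcript, held the same 2 values. The summed level of the 5 synthases was 256 CPM without and 204 CPM with M2BPGi. Within this sum CERS2 made up 52.0% (50.7 to 53.3) of the tags in non-treated and 57.2% (55.8 to 58.6) in M2BPGi-treated cells. CERS5 and CERS6 together stood at 0.803 (0.762 to 0.846) of the CERS2 tags in non-treated and 0.647 (0.610 to 0.686) in M2BPGi-treated cells. DEGS1, the desaturase that makes ceramide from dihydroceramide, was at 56.0 and 36.1 CPM, a log2 ratio of -0.62 (-0.76 to -0.51), and 3.34% of all genes tested had a lower ratio. Across the step, 8 of 10 genes tested were lower, against 57.0% of all genes, with a median log2 ratio of -0.41, 6 stood at 80% or less, against 18.4%, and the summed level in M2BPGi-treated cells was 80.2% of that in non-treated cells. Set against the length groups, the median of the step was -0.28. It was -0.33 without genes with a near-identical copy, but -0.48 at a mean of at least 10 CPM.

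The bases just upstream of the annotated starts are shown for genes with a single start in the RefSeq promoter table, the lowest of these in synthesis, conversion and turnover (SPTLC1 and CERS5, UGCG, SMPD1) and SPTSSA, which was higher. Each is the 100 bases before the start in GRCh38.p14, credited to RefSeq and read 5′ to 3′ on the strand of the gene, with motif matches in capitals. The windows are chr9:92115414-92115513 on the minus strand for SPTLC1, chr12:50167370-50167469 on the minus strand for CERS5, chr9:111896714-111896813 on the plus strand for UGCG, chr11:6390374-6390473 on the plus strand for SMPD1 and chr14:34462241-34462340 on the minus strand for SPTSSA.
SPTLC1: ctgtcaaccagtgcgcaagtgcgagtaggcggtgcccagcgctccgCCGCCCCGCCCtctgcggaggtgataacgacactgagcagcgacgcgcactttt
CERS5: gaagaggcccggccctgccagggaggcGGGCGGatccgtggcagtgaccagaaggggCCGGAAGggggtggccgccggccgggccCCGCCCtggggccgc
UGCG: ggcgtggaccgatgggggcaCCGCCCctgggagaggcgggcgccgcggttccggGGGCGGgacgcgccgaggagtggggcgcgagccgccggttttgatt
SMPD1: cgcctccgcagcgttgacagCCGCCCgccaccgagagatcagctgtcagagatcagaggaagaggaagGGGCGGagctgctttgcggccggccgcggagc
SPTSSA: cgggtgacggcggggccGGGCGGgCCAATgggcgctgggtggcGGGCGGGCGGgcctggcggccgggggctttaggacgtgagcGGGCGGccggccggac
The capitals mark the GC box GGGCGG or its reverse complement CCGCCC in all 5 windows, where neighbouring matches can overlap, the ETS core CCGGAAG in CERS5, and the CCAAT box CCAAT in SPTSSA. The search covered both strands of the whole RefSeq window, from 250 bases before to 50 bases after each start, and a match is a description of the letters and not of a bound site. Of the 33 genes tested, 27 were matched in the table, and all 27 held a GC box in at least 1 of their windows, against 78.1% of 9575 genes tested and matched and 45.0% of all 35116 windows. A CCAAT box was found in 9 of the 27 (33.3%), against 43.9% of the genes tested and 34.6% of all windows. The ETS core was found in 5 (18.5%), against 23.9% and 10.3%, and the TATA box TATAAA in 1, SGMS2, against 8.05% and 11.5%. The E-box CACGTG was found in 0, against 12.7% and 7.26%. The unfolded protein response core TGACGTG was found in 3, SPTSSA, ORMDL1 and ORMDL3, against 3.38% and 1.97%, and the AP-1 site TGANTCA in 2, SGMS2 and SPHK1, against 6.23% and 7.71%. The sterol response-like letters TCACNCCAC were found in 0, against 1.38% and 1.13%. The E-box and the unfolded protein response core share the letters ACGTG. The 100 bases before the start had a median GC content of 71.0% over the windows of the 27 genes, against 68.0% for the genes tested, so the starts of both were GC-rich. The deposited values give no start positions, so whether the tags began at these starts was not tested.

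The ORMDL proteins bind serine palmitoyltransferase and restrain it when ceramide is plentiful. ORMDL1 was at 150.0 and 116 CPM, a log2 ratio of -0.37 (-0.44 to -0.30). ORMDL2 was at 129 and 105 CPM, a log2 ratio of -0.29 (-0.37 to -0.22). ORMDL3 was at 60.6 and 54.1 CPM, a log2 ratio of -0.16 (-0.27 to -0.06). All 3 inhibitor genes were lower, where 57.0% of all genes tested were, with a summed level of 339.5 CPM without and 275 CPM with M2BPGi. The sum of the 3 was 3.01 (2.89 to 3.15) times that of SPTLC1 and SPTLC2 in non-treated and 3.41 (3.25 to 3.59) times in M2BPGi-treated cells. This comparison rests on SPTLC1, whose value is uncertain, since the summed level of the 3 in M2BPGi-treated cells was 81.1% of that in non-treated cells, against 71.5% for SPTLC1 and SPTLC2 together but 87.6% for SPTLC2 alone.

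Ceramide conversion takes place mainly in the Golgi, where ceramide becomes glucosylceramide or sphingomyelin. UGCG, which adds the glucose, was at 48.7 and 32.4 CPM, a log2 ratio of -0.57 (-0.72 to -0.46). B4GALT5, which extends glucosylceramide to lactosylceramide, was at 69.7 and 61.3 CPM, a log2 ratio of -0.18 (-0.29 to -0.08), or -0.10 against its length group. The glucosyltransferase was thus the lowest of the step. SGMS1, the sphingomyelin synthase of the Golgi, was at 65.3 and 54.2 CPM, a log2 ratio of -0.26 (-0.37 to -0.16). SGMS2, its counterpart at the plasma membrane, was at 22.1 and 16.6 CPM, a log2 ratio of -0.39 (-0.60 to -0.23). SAMD8, a related enzyme that makes ceramide phosphoethanolamine, was at 16.3 and 12.6 CPM, a log2 ratio of -0.35 (-0.59 to -0.16). Tags of SGMS1 and SGMS2 outnumbered those of UGCG 1.80-fold (1.67 to 1.93) in non-treated and 2.19-fold (2.01 to 2.38) in M2BPGi-treated cells. CERK, which phosphorylates ceramide, was at 18.2 and 18.7 CPM, and COL4A3BP, the ceramide carrier between endoplasmic reticulum and Golgi, at 5.82 and 6.27 CPM. For both the counting interval held 0. Of the 7 genes 5 were lower and 2 higher, against 57.0% and 42.9% of all genes tested, with a median log2 ratio of -0.26, and the summed level in M2BPGi-treated cells was 82.1% of that in non-treated cells.

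Ceramide is also set free from sphingomyelin and glycosylated ceramides. SMPD1, the lysosomal acid sphingomyelinase, was at 51.8 and 36.7 CPM, a log2 ratio of -0.48 (-0.62 to -0.37). SMPD2, a neutral sphingomyelinase, was at 23.8 and 17.5 CPM, a log2 ratio of -0.42 (-0.62 to -0.26). SMPD4, another neutral enzyme, was at 44.6 and 44.4 CPM, a log2 ratio of -0.01 (-0.13 to 0.12) that turned to 0.04 with the libraries rescaled. The sphingomyelinase genes therefore differed among themselves, and SMPD4 made up 37.1% (35.3 to 38.9) of the sphingomyelinase tags in non-treated and 45.0% (43.0 to 47.0) in M2BPGi-treated cells. SMPD4 has a near-identical copy in MZT2A, with 96.6% identity over 203 nt, so its value is uncertain where tags fit both. GBA2, a glucosylceramidase of cell membranes, was at 82.9 and 60.4 CPM, a log2 ratio of -0.45 (-0.55 to -0.36). GALC, which removes galactose from galactosylceramide, was at 15.6 and 11.8 CPM, a log2 ratio of -0.38 (-0.63 to -0.18).

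NSMAF, an adaptor protein of neutral sphingomyelinase activation at the tumour necrosis factor receptor, was the exception of the step. Its row held 18.2 CPM without and 796 CPM with M2BPGi, a log2 ratio of 5.37 (5.31 to 5.59). The processed pseudogene AC068522.4, at chr8:58588420-58588764 of GRCh38 within NSMAF and on its strand, held 3.37 and 780.2 CPM. The gain of 778 CPM on the NSMAF row and that of 777 CPM on the row of AC068522.4 were nearly equal. Taking the tags of AC068522.4 off the NSMAF row, a step chosen after the values were seen, left 14.9 CPM without and 16.1 CPM with M2BPGi, a log2 ratio of 0.11 (-0.10 to 0.32). This remainder rests on the assumption that the same tags were counted on both rows, which was not tested. On that assumption AC068522.4 held 18.5% of the NSMAF tags in non-treated and 98.0% in M2BPGi-treated cells. Of the 6 genes of the step with tags 5 were lower and 1 higher, against 57.0% and 42.9% of all genes tested, with a median log2 ratio of -0.40, or -0.42 without NSMAF. The summed level of the sphingolipid genes was 1916 CPM without and 2347 CPM with M2BPGi with NSMAF, and 1898 and 1551 CPM without it, so this row alone turned the direction of the sum.

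**Figure D3:**
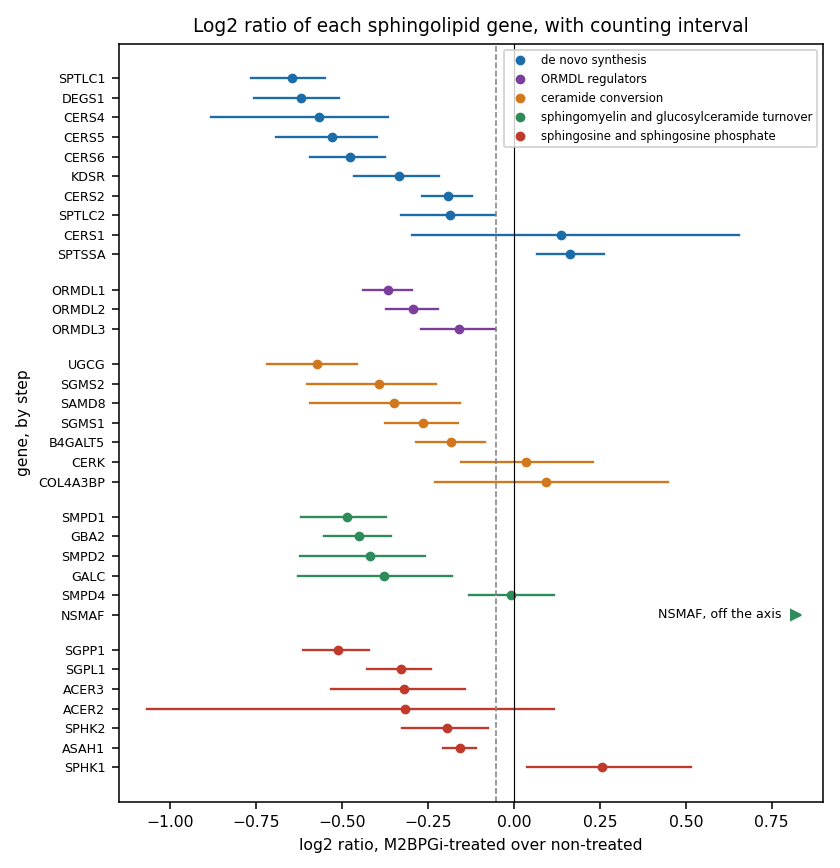
Log2 ratio of treated over non-treated cells for each sphingolipid gene (points, 1 library per condition) by step, with lines for the 95% counting interval of the tag ratio without the added 1 CPM; the dashed line is the median of all genes tested at -0.05. SPTLC1 at -0.65 and DEGS1 at -0.62 are the lowest, SPHK1 at 0.26 is the highest on the axis, and NSMAF at 5.37 is off the axis.

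Ceramidases cleave ceramide to sphingosine. ASAH1, the acid ceramidase of the lysosome, was the most abundant sphingolipid gene in non-treated cells, at 300.0 CPM against 269 CPM in M2BPGi-treated cells, a log2 ratio of -0.16 (-0.21 to -0.11), or -0.10 against its length group. ACER3, an alkaline ceramidase, was at 20.0 and 15.8 CPM, a log2 ratio of -0.32 (-0.53 to -0.14), or -0.18 against its length group. ACER2, the alkaline ceramidase of the Golgi, was at 2.45 and 1.77 CPM, a difference within counting error (-1.07 to 0.12), and it has a near-identical copy in AC017081.1, with 96.6% identity over 474 nt, so its value is uncertain to that extent as well. ASAH1 made up 93.0% and 93.9% of the ceramidase tags, so its transcript gave most of the ceramidase tags in both libraries. Sphingosine kinases make sphingosine 1-phosphate. SPHK1, the mainly cytosolic kinase, was at 11.0 and 13.4 CPM, a log2 ratio of 0.26 (0.04 to 0.52). SPHK2, the kinase found also in the nucleus and mitochondria, was at 45.4 and 39.5 CPM, a log2 ratio of -0.20 (-0.33 to -0.07). The kinases thus stood on opposite sides of 0, also with the libraries rescaled, and SPHK1 made up 19.5% (17.5 to 21.8) of the kinase tags in non-treated and 25.3% (22.9 to 27.7) in M2BPGi-treated cells.

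Sphingosine 1-phosphate is removed by a lyase, which takes it out of the pathway, or by phosphatases, which return sphingosine. SGPL1, the lyase, was at 87.3 and 69.2 CPM, a log2 ratio of -0.33 (-0.43 to -0.24), or -0.22 against its length group. SGPP1, a phosphatase, was at 87.2 and 60.9 CPM, a log2 ratio of -0.51 (-0.61 to -0.42). Both removal genes were lower, and the tags of the kinases stood at 0.323 (0.304 to 0.344) of those of the lyase and phosphatase in non-treated and 0.406 (0.381 to 0.433) in M2BPGi-treated cells. The step had 6 of 7 genes lower and 1 higher, against 57.0% and 42.9% of all genes tested, with a median log2 ratio of -0.32, which was -0.18 with each ratio set against its length group. These are transcript levels, and lipids and enzyme activities were not measured in these libraries.

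**Figure D4:**
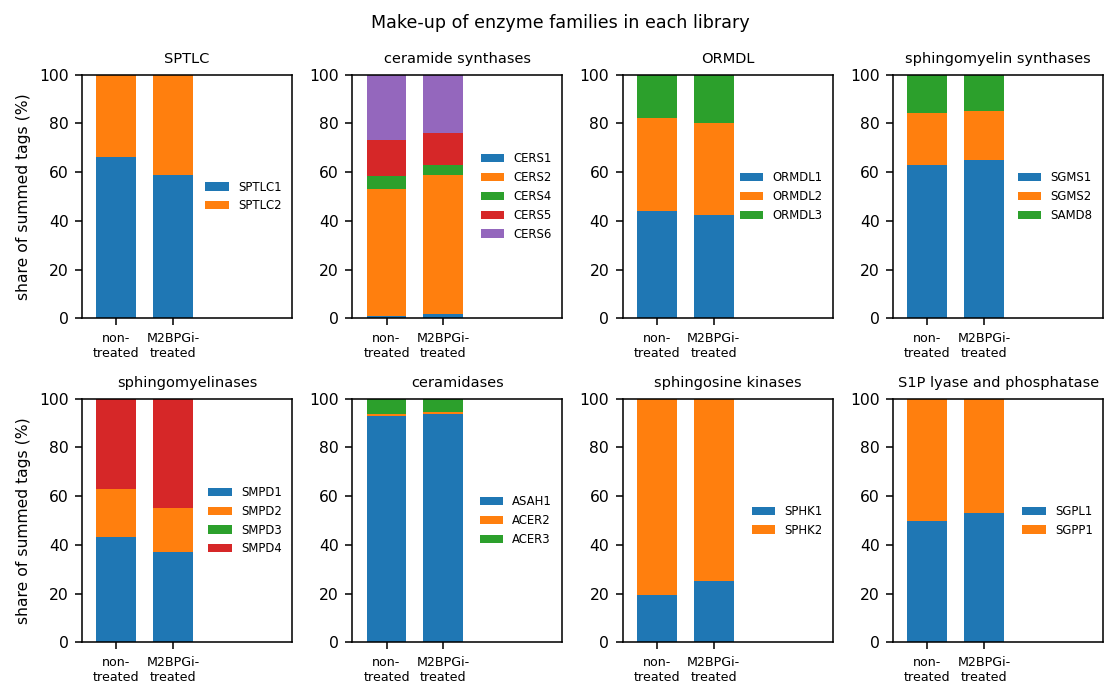
Share of the summed tags (vertical, percent, from 0) that each gene takes within 8 gene groups, in non-treated and M2BPGi-treated cells (1 library each). SPTLC1 takes 66.3% of the SPTLC tags in non-treated and 58.8% in M2BPGi-treated cells, and CERS2 takes 52.0% and 57.2% of the ceramide synthase tags.

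Other genes of the pathway were described in the same way. Of 67 symbols in 5 lists, 53 had a row and 51 a mean of at least 1 CPM, and these had a median log2 ratio of -0.24, with 42 lower and 9 higher, 15 at 80% or less and 0 at 125% or more. Over all genes tested 57.0% were lower and 42.9% higher, 18.4% stood at 80% or less and 9.04% at 125% or more. All 13 genes of the lysosomal degradation list were lower, with a median of -0.29. This list also holds SUMF1, which activates sulfatases in the endoplasmic reticulum, and NPC1 and NPC2, which export cholesterol from lysosomes. ARSA, the arylsulfatase that removes sulfate from sulfatide, was the lowest at 12.2 and 7.92 CPM, a log2 ratio of -0.57. The highest were GLA, an alpha-galactosidase, at 80.8 and 69.7 CPM with a log2 ratio of -0.21, and NEU1, a sialidase, at 185 and 172 CPM with -0.10. The whole list thus lay below the median of all genes tested.

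Very-long-chain fatty acid elongation supplies acyl chains to the ceramide synthases. All 13 genes tested of this list were lower as well, against 57.0% of all genes tested, with a median log2 ratio of -0.31. They include FA2H, a fatty acid hydroxylase and not part of the elongation cycle. Which of the listed enzymes supply chains for ceramide in these cells was not tested. ELOVL3, an elongase of long saturated chains, was at 16.1 and 9.89 CPM, a log2 ratio of -0.65. ELOVL1, the elongase that works with CERS2, was at 168 and 108 CPM, a log2 ratio of -0.63. The elongases ELOVL3 and ELOVL1 were thus as low as SPTLC1 and DEGS1. ELOVL6, which elongates palmitate, was at 38.6 and 35.2 CPM, and HSD17B12, a reductase of the elongation cycle, at 168 and 153 CPM, each with a log2 ratio of -0.13.

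The remaining 3 lists had genes on both sides of 0. Glycosphingolipid synthesis had 7 of 9 genes lower, against 57.0% of all genes. Its median was -0.14, which was -0.22 at a mean of at least 10 CPM and -0.06 against the length groups. In it GAL3ST1, the sulfotransferase that makes sulfatide, was at 153 and 105 CPM with a log2 ratio of -0.54. B4GALNT1, a ganglioside synthase, was at 48.1 and 37.9 CPM with -0.34. B3GALNT1, which makes globoside, had 17.8 and 16.4 CPM with -0.11, and ST3GAL5, which makes the ganglioside GM3, had 55.5 and 53.2 CPM with -0.06. Ceramide and glucosylceramide transfer and its regulators had 6 of 11 genes lower, near the 57.0% of all genes, and a median of -0.01, which turned to 0.04 with the libraries rescaled and to 0.09 against the length groups. There VAPA, the membrane anchor of the ceramide carrier, was at 249 and 287 CPM with a log2 ratio of 0.21, but has 2 near-identical copies, among them in ABHD2 with 96.0% identity over 272 nt, so its value is uncertain to that extent. PRKD3, of the protein kinase D family, was at 21.6 and 24.9 CPM with 0.20, while OSBP, an oxysterol-binding protein, was at 44.0 and 37.3 CPM with -0.23 and PI4KB, a phosphatidylinositol kinase, at 16.7 and 14.3 CPM with -0.21. Transport, receptors and other salvage enzymes of sphingosine phosphate had 5 of 13 genes listed, 3 of them lower, near the 57.0% of all genes, and a median of -0.20, which was -0.32 with a pseudocount of 0.1 CPM and 0.01 over the 3 with a mean of at least 10 CPM. Of these 3, SPNS2, the exporter of sphingosine 1-phosphate, was at 13.3 and 10.0 CPM with a log2 ratio of -0.37, ALDH3A2, the fatty aldehyde dehydrogenase, at 53.6 and 53.9 CPM with 0.01, and ASAH2B, a partial copy of a ceramidase gene, at 10.2 and 11.7 CPM with 0.18, uncertain where its tags fit ASAH2, with 99.0% identity over 103 nt.

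**Figure D5:**
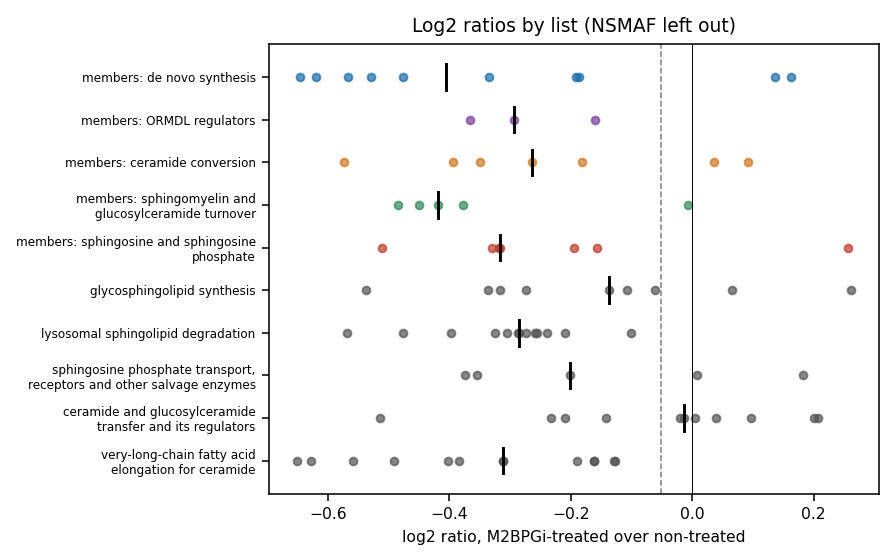
Log2 ratio of treated over non-treated cells (horizontal, 1 library per condition) of each gene tested, by step for the sphingolipid genes without NSMAF and by list for the other pathway genes; black bars are medians and the dashed line is the median of all genes tested at -0.05. The lysosomal and elongation lists lie wholly below 0, and the transfer list lies around 0 with a median of -0.01.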

How the data were processed

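CAGE libraries of non-treated and M2BPGi-treated PLC/PRF/5 cells were used, 1 library each, grouped by the labels of the samples. The authors removed tags of ribosomal RNA, aligned what remained to the genome and deposited CPM per gene with 2 decimals. The submitters' processing notes name hg19, BWA and HISAT2, while the methods name a mouse genome although the gene identifiers belong to human genes. The rule that placed tags on genes is not given in the sources used here. The CPM steps were used to read back tag numbers, where 100% of the values came out whole within the rounding, and 87.6% and 94.1% of low values within 0.1 of a step, which is narrower than the rounding. No p-value from tag counts was therefore computed. The read-back gave the totals and the counting intervals, which carry the same uncertainty. Transcript lengths, overlaps and copies came from GENCODE release 29 on GRCh38, where 15781 of 16424 identifiers were found. Copies were searched for 13144 genes with BLAST+ 2.17.0, and a match of the first 500 nt to another gene counted as near-identical from 100 nt and 95% identity. The members and lists were chosen with earlier results of these data known. All members with a mean of at least 10 CPM are named, and of each other list the 2 highest and 2 lowest log2 ratios at that level. By this rule 1 more gene would be named, which is not reported here. Other genes were named after their values were seen. CERS2, CERS4, CERK, NSMAF, ASAH1 and SGPP1 had no promoter sequence here. Intervals and read-back were tried on simulated libraries that held counting error only. These had no tags shared between rows and no spread between cultures, so they checked the calculation and not the deposited values. Alternatives were other pseudocounts, filters and scalings, transcript length, genes without copies and members left out. Python 3.11.15, scipy 1.17.1 and pandas 2.3.3 were used.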

Additional observations from a re-analysis of the deposited data

How the results depend on the processing

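The median log2 ratio of the sphingolipid genes was -0.32 and lay between -0.34 and -0.23 under the other pseudocounts, filters, scalings and gene selections, and no median of a step changed sign. The median of sphingosine and sphingosine phosphate was -0.18 with a pseudocount of 5 CPM and -0.18 with each ratio set against its length group. The number of sphingolipid genes at 80% or less of their non-treated value was 10 against the length groups, in place of 16, and the number at least 1.5-fold lower was 4 with a pseudocount of 0.1 CPM and 1 with a pseudocount of 5 CPM, with the libraries rescaled, with trimmed mean (TMM) scaling or without genes with a near-identical copy, in place of 2. Without NSMAF, and without NSMAF, SPTSSA and CERS1, whose tags may be counted on another row as well, 0 stood at 125% or more or at least 1.5-fold higher, and without the 3 genes 3 were higher at all, in place of 6; the latter selection and the shares among genes of at least 10 CPM were chosen after seeing the data. Over all genes, 219 were at least 1.5-fold higher and 555 lower, which became 336 and 856 with a pseudocount of 0.1 CPM, 91 and 164 with 5 CPM, 135 and 223 at a mean of at least 10 CPM, 1240 and 2532 at 125% or more and 80% or less, and 33 and 59 at 2-fold. Apart from the smaller number of genes left by a filter or selection and the fold itself, the cause was not tested. Of 320 values of single genes under an alternative, 7 lay outside their counting interval. No paired analysis was possible because there was a single library of each condition, and for the same reason no library could be left out. No p-value of a binomial test of tags was computed, since the tag numbers are read back from rounded values. The counting intervals rest on the same read-back numbers and share this limit. Depth limits CERS1, COL4A3BP and ACER2, whose intervals are wide.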
